A study of Mus musculus with 8 samples.

Results

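Mouse embryonic kidneys of stage E16.5 were compared with those of stage E14.5 by RNA sequencing, where E and the number give the embryonic day. The comparison used 4 of the 8 libraries of the series, 1 from CPF-exposed and 1 from DMSO control embryos at each of the 2 stages, chosen by their stage labels alone. All embryos were of the outbred ICR strain, from mice aged 8 weeks that were mated on a timed schedule. The CPF group received the organophosphate insecticide chlorpyrifos (CPF) dissolved in dimethyl sulfoxide (DMSO), 5 mg/kg under the skin once a day from gestation day 7.5 to 11.5, and the DMSO group received an equal volume of the solvent over the same days. Dosing had therefore ended before the earliest kidney was collected, and the DMSO controls were themselves injected, so no library comes from an untreated embryo. No label says how many embryos or litters went into a library. The other 4 libraries, from E12.5 and E18.5, were used to place the E14.5 to E16.5 step beside its neighbours.

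The permanent mouse kidney grows by a repeated exchange between 2 tissues. The ureteric bud branches to form the collecting duct tree, and at its tips mesenchymal progenitors that express Six2 either renew themselves or turn into epithelium through Wnt9b and Wnt4 signals and then divide, under Notch signalling, into podocytes, proximal tubule, loop of Henle and distal tubule. Stromal cells that express Foxd1 surround them and give rise to much of the interstitium and the mural cells of vessels, while the ureter and renal pelvis gain a urothelial lining wrapped in smooth muscle.

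Each gene had a level in TPM, a length-corrected transcript abundance that sums to 1000000 in each library, and a step, the difference of log2(TPM + 1) between E16.5 and E14.5, in each agent. A gene was called when limma, with agent as the pairing term, gave an adjusted p under 0.05, and both agents moved in the same direction. Of 13023 genes tested, 324 were called higher at E16.5 (2.49%) and 146 lower (1.12%), 470 in all (3.61%). Every count of called list members below is to be read beside the shares of 2.49% and 1.12%. At an unadjusted p under 0.05 there were 2150 genes. A gene's own spread is how far its CPF step and its DMSO step differ, with 1 residual degree of freedom. It was moderated toward a trend over all genes, which weighed as a median of 17.7 prior degrees of freedom. For most genes the p-value and standard error therefore rest mainly on other genes of like level. They do not measure the spread between animals. On simulated data this fit made more false calls than its threshold implies, so the adjusted p-values below may be too small. When the same contrast was taken from a fit to all 8 libraries, with 3 residual degrees of freedom, only 5 genes remained called (0.0366% of 13677), namely Acta2, Tagln and Upk3a among the higher and Mir1946b and Mir881 among the lower. The fold changes of that fit equal the 4-library ones by construction, so no direction could change there. Of the 470 genes, 412 had an unadjusted p under 0.05 in it. Fold changes below are the 4-library values, each with its standard error, on the log2(TPM + 1) scale, which understates changes of low genes.

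Without any test, 8179 of the tested genes (62.8%) moved in the same direction in both agents, 4106 upward (31.5%) and 4073 downward (31.3%). A step of at least 2-fold in both agents was seen for 266 genes upward (2.04%) and 126 downward (0.968%). Scaling the libraries to their protein-coding transcripts moved the median DMSO step from -0.04 to 0.09 and left 168 higher and 38 lower calls, so that the share of higher calls went from 68.9% to 81.6%. In whole tissue, a change in the number of cells of a type and a change in RNA per cell cannot be told apart.

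**Figure D1:**
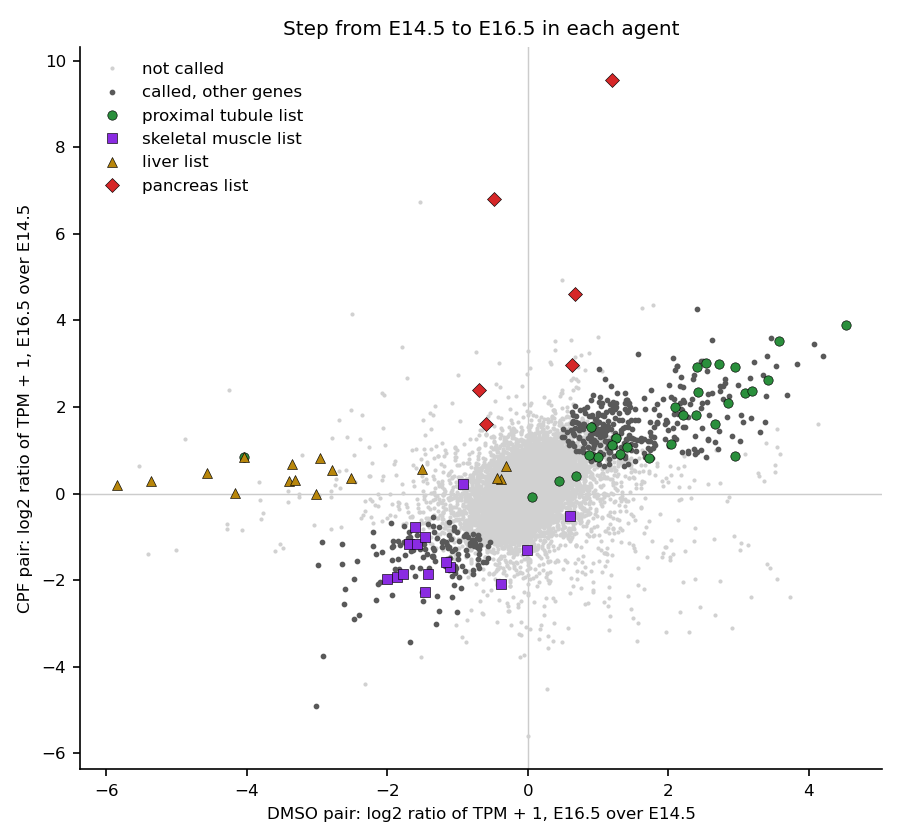
Each point is 1 of 13023 tested genes, with its log2 ratio of TPM + 1 between E16.5 and E14.5 in the DMSO pair on the horizontal axis and in the CPF pair on the vertical axis; dark points are the 470 called genes and coloured symbols the tested members of 4 gene lists. Proximal tubule genes lie at the upper right and skeletal muscle genes at the lower left, while liver markers spread along the horizontal axis and pancreas markers along the vertical one.

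The 4 libraries were not equally clean. Rpph1 and Rmrp, the catalytic RNAs of 2 RNA-processing enzymes, together took 20.7% and 21.8% of the TPM at E14.5 and E16.5 with CPF and 23.6% and 31.0% with DMSO, and protein-coding transcripts took 63.2% to 73.1%. Markers of liver and pancreas differed widely between libraries. Summed over the 21 liver markers in the files, the level was 5464 TPM at E14.5 and 6591 TPM at E16.5 with CPF against 1101 and 97.4 TPM with DMSO. The 22 pancreas markers summed to 2299 TPM in the E16.5 CPF library and to 47.5 to 68.5 TPM in the other 3. Kidney markers were present throughout: Wt1 stood at 76.0 to 104 TPM and Pax2 at 10.5 to 30.1 TPM in the 4 libraries. Genes with several RefSeq transcripts are mostly listed near 0 (Gapdh reached at most 0.926 TPM in the 8 libraries), so a low level of such a gene was not read as low expression.

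Most tested genes of the proximal tubule, the segment that takes back the bulk of the filtrate, rose. Of 38 listed genes, 29 were tested and 20 rose, against 2.49% of all tested genes, and none fell. The median step over the tested members was 2.01 against 0.01 for all tested genes, 1.61 in the CPF pair and 2.20 in the DMSO pair. Since 8 of the 29 were under 1 TPM in both E14.5 libraries and could pass the filter only because they were high at E16.5, the 21 others were also counted apart: 13 of them rose, with a median of 1.28, against 2.10% and a median of 0.01 for the 12689 genes that reached 1 TPM in at least 1 library of each stage. Over all 38, whether tested or not, 29 had both E16.5 libraries above both E14.5 libraries, which was true of 16.3% of all genes in the files.

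Slc34a1, the main sodium-phosphate cotransporter of the brush border (GRCm38 chr13:55399622-55414695), read 1.56 TPM at E14.5 and 37.1 TPM at E16.5 with CPF, and 0.866 and 41.9 TPM with DMSO. Both E16.5 libraries lay far above both E14.5 libraries (log2 fold change 4.21 ± 0.32, adjusted p = 3.34e-07). The levels of Ggt1, the brush border enzyme that breaks down glutathione, were 5.61 TPM at E14.5 and 75.6 TPM at E16.5 with CPF, and 4.41 and 63.8 TPM with DMSO, and again the stages did not overlap (log2 fold change 3.56 ± 0.26, adjusted p = 2.54e-07). Lrp2 and Cubn encode megalin and cubilin, the partner receptors that take filtered protein back up. Lrp2 read 15.1 TPM at E14.5 and 83.1 TPM at E16.5 with CPF, and 10.8 and 106 TPM with DMSO (log2 fold change 2.78 ± 0.26, adjusted p = 5.02e-06). Cubn read 2.60 TPM at E14.5 and 17.0 TPM at E16.5 with CPF, and 1.93 and 24.1 TPM with DMSO (log2 fold change 2.71 ± 0.34, adjusted p = 9.52e-05), and Amn, which carries cubilin to the membrane, rose with them by 2.66 ± 0.36. Both receptors were higher in the DMSO library than in the CPF library at E16.5 and lower at E14.5, yet in each the stages stayed apart.

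The rise took in transport, metabolism and regulation alike. Pck1 and Fbp1, enzymes of glucose production, rose by 3.02 ± 0.37 and 2.94 ± 0.35 from levels below 1 TPM in both E14.5 libraries. The urate transporter Slc22a12 and the organic anion transporter Slc22a6 rose by 2.86 ± 0.36 and 2.78 ± 0.37. Hnf4a, the nuclear receptor required for proximal tubule maturation, read 13.2 TPM at E14.5 and 55.9 TPM at E16.5 with CPF, and 5.88 and 28.5 TPM with DMSO (log2 fold change 2.05 ± 0.26, adjusted p = 0.000142). Cldn2, the claudin that makes the proximal tubule leaky to cations, and the brush border protease Mep1a, neither of them on the list, were among the 15 genes with the largest steps and rose by 3.24 ± 0.34 and 3.77 ± 0.27. So were Napsa (2.83 ± 0.36), Aadat (2.73 ± 0.29) and Keg1 (2.39 ± 0.26). Members that were already abundant at E14.5 did not all move: Gatm, the first enzyme of creatine synthesis, read 30.1 TPM at E14.5 and 28.2 TPM at E16.5 with CPF, and 15.1 and 15.8 TPM with DMSO, with no visible step.

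Several of these genes, Hnf4a and Pck1 among them, are also active in liver. The liver sum was 5464 and 6591 TPM at E14.5 and E16.5 with CPF and 1101 and 97.4 TPM with DMSO, and its part in these levels was not tested. The list itself holds 1 marker shared with the liver list, Ttr, at 122 TPM at E14.5 and 221 TPM at E16.5 with CPF, and 23.6 and 0.498 TPM with DMSO, and it did not pass the test.

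HNF1 proteins regulate many proximal tubule genes through the half-site GTTAAT, so the 250 bases upstream of each start site were searched for these letters on both strands. Among the 20 risen proximal tubule genes 18 had an entry in the RefSeq promoter table (GRCm38.p6) and 4 held the half-site, beside 5.06% of the 9247 tested genes with an entry and 7.49% of all 27025 genes with one. Stretches of 60 bases around the matches are shown because they place the letters in the promoters of 4 of the genes that rose, with the half-site or its reverse complement in capitals, 5′ to 3′ on the plus strand.
Hnf4a, chr2:163547050-163547109: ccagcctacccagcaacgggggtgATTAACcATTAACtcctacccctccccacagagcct
Pck1, chr2:173152854-173152913: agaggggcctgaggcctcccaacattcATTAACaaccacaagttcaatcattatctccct
Slc22a6, chr19:8617913-8617972: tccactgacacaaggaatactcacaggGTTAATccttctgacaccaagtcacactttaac
Slc34a1, chr13:55399546-55399605: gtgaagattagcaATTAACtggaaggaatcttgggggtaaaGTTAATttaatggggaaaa
Slc34a1 and Hnf4a each carry the letters at 2 places. A match is a description of the sequence, not evidence of binding in these kidneys.

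Podocytes, the cells whose interlocking foot processes form the filter, had more of several of their transcripts at E16.5 in both agents. Nphs1, which encodes nephrin, the adhesion protein of the slit diaphragm, read 0.884 TPM at E14.5 and 7.42 TPM at E16.5 with CPF, and 1.19 and 9.09 TPM with DMSO (log2 fold change 2.18 ± 0.36, adjusted p = 0.00118), and both E16.5 values exceeded both E14.5 values. Of 24 listed podocyte genes 17 were tested and 6 rose, among them Clic5 (2.17 ± 0.33), Synpo (1.35 ± 0.36) and the sialomucin Podxl (1.26 ± 0.24). The median step of the tested members was 0.80. Not every podocyte gene took part. Wt1, already made in the progenitors, read 83.2 TPM at E14.5 and 76.0 TPM at E16.5 with CPF, and 102 and 104 TPM with DMSO, and Cd2ap read 119 TPM at E14.5 and 122 TPM at E16.5 with CPF, and 106 and 108 TPM with DMSO. R3hdml, among the 15 largest steps, read 1.81 TPM at E14.5 and 32.0 TPM at E16.5 with CPF, and 2.71 and 21.9 TPM with DMSO (log2 fold change 3.09 ± 0.33, adjusted p = 2.19e-05).

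The genes of the first epithelial nephron stages rose more modestly. Of 21 listed, 17 were tested, 8 rose and none fell, with a median of 0.85. All 17 had reached 1 TPM in at least 1 library of each stage. Wnt4, the signal that drives mesenchyme into epithelium, read 11.8 TPM at E14.5 and 36.2 TPM at E16.5 with CPF, and 12.4 and 21.4 TPM with DMSO (log2 fold change 1.14 ± 0.28, adjusted p = 0.0271). The renal vesicle and tubule regulator Pax8 read 31.0 TPM at E14.5 and 79.7 TPM at E16.5 with CPF, and 33.5 and 71.8 TPM with DMSO (log2 fold change 1.21 ± 0.23, adjusted p = 0.0042). Irx1 and Irx2, which mark the middle segment of the S-shaped body, rose by 2.34 ± 0.36 and 1.55 ± 0.36, and Osr2 by 1.30 ± 0.31. Notch ligands and modifiers moved with them: Dll1 rose by 1.12 ± 0.29, Jag1 by 0.85 ± 0.23 and Lfng, which modifies Notch receptors, by 1.01 ± 0.26. In the broader list of 29 tested Notch and Wnt pathway genes 6 rose and none fell (median 0.56). The 6 include Dll1 and Lfng again, besides the receptor Notch1 and the endothelial ligand Dll4 (1.21 ± 0.26 and 1.26 ± 0.32). Lhx1, another renal vesicle regulator, read 10.7 TPM at E14.5 and 21.6 TPM at E16.5 with CPF, and 15.8 and 18.7 TPM with DMSO, a step that did not pass the test (log2 fold change 0.59 ± 0.28, adjusted p = 0.311).

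Of 22 listed loop and distal tubule genes 13 were tested, with a median of 1.29. Of these 6 rose, beside 2.49% of all tested genes, and none fell. Of the 9 that reached 1 TPM in at least 1 library of each stage 4 rose, also with a median of 1.29. Bsnd, which encodes barttin, an accessory subunit of chloride channels, read 0.139 TPM at E14.5 and 5.65 TPM at E16.5 with CPF, and 0.726 and 11.1 TPM with DMSO (log2 fold change 2.68 ± 0.36, adjusted p = 0.000212). It was higher with DMSO than with CPF at E16.5. Bsnd was under 1 TPM in both E14.5 libraries and passed the filter only through its E16.5 levels, so its stages could not overlap. Sostdc1, a secreted BMP and Wnt antagonist of the distal tubule, read 8.16 TPM at E14.5 and 49.8 TPM at E16.5 with CPF, and 9.39 and 47.3 TPM with DMSO (log2 fold change 2.34 ± 0.26, adjusted p = 2.74e-05). The sodium-potassium-chloride cotransporter Slc12a1 was under the filter at 0.102 and 0.789 TPM with CPF and 0.0213 and 2.08 TPM with DMSO, and the late loop marker Umod was listed at 0 in all 4 libraries.

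Several water channel and sodium channel genes of the collecting duct rose. Aqp2, the vasopressin-regulated water channel, was listed at 0.0665 TPM with CPF and 0 with DMSO at E14.5 and at 4.47 and 5.67 TPM at E16.5 (log2 fold change 2.55 ± 0.36, adjusted p = 0.000322). Aqp3, its basolateral counterpart, read 3.90 TPM at E14.5 and 21.9 TPM at E16.5 with CPF, and 2.24 and 12.3 TPM with DMSO (log2 fold change 2.13 ± 0.32, adjusted p = 0.000569). Aqp4 rose by 1.74 ± 0.35, and the sodium channel subunits Scnn1a and Scnn1g by 1.46 ± 0.37 and 1.38 ± 0.28. In all 6 of 11 tested principal cell genes rose (18 listed, median 1.25), and 5 of 10 (median 0.93) without Aqp2, which passed the filter only through its E16.5 level. Intercalated cells, which move acid and base, had more of the ammonia channel Rhcg, at 2.49 TPM at E14.5 and 14.8 TPM at E16.5 with CPF, and 3.31 and 17.3 TPM with DMSO (log2 fold change 2.13 ± 0.32, adjusted p = 0.000579). Their master regulator Foxi1 rose by 2.13 ± 0.36. The proton pump subunits Atp6v1b1 and Atp6v0a4 rose by 2.78 ± 0.36 and 2.69 ± 0.35. This list had 14 genes, 9 tested and 5 risen (median 1.58). Foxi1 and another 2 tested members were under 1 TPM in both E14.5 libraries, and of the other 6 members 3 rose (median 1.56). Its 2 members that red cells also make, Slc4a1 and Car2, did not pass the test: Slc4a1 read 249 TPM at E14.5 and 156 TPM at E16.5 with CPF, and 37.7 and 35.6 TPM with DMSO, and Car2 read 435 TPM at E14.5 and 237 TPM at E16.5 with CPF, and 57.7 and 51.7 TPM with DMSO. Ureteric bud and tip genes had 1 of 15 tested called (Krt8, 1.34 ± 0.26) and a median of 0.29. Of all 19 listed, 7 had both E16.5 libraries above both E14.5 libraries and 3 had both below. Those patterns were seen in 16.3% and 16.7% of all genes in the files. The tip receptor Ret read 1.95 TPM at E14.5 and 1.98 TPM at E16.5 with CPF, and 1.46 and 1.26 TPM with DMSO, and Calb1 read 173 TPM at E14.5 and 99.5 TPM at E16.5 with CPF, and 167 and 173 TPM with DMSO.

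**Figure D2:**
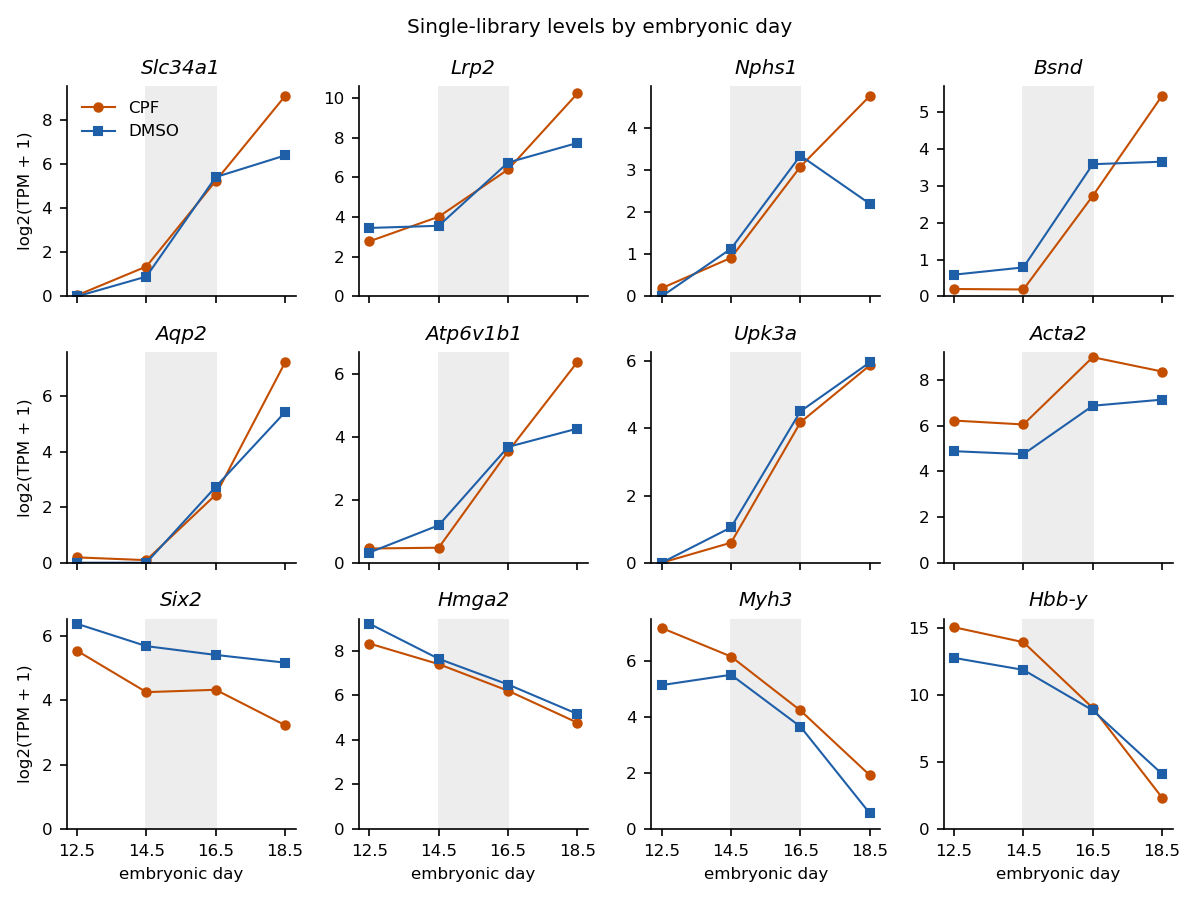
Levels of 12 genes as log2(TPM + 1) against embryonic day, 1 library per point, with CPF in orange circles, DMSO in blue squares and the E14.5 to E16.5 interval shaded. The transporter, filter and urothelial genes climb across the shaded interval in both agents, Six2 is nearly level in it, and Hmga2, Myh3 and Hbb-y fall.

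Several genes of urothelium and of smooth muscle rose as well. Smooth muscle of vessels and of the urinary tract was not told apart. Upk3a, a plaque protein of urothelium, read 0.512 TPM at E14.5 and 17.2 TPM at E16.5 with CPF, and 1.07 and 21.8 TPM with DMSO (log2 fold change 3.52 ± 0.35, adjusted p = 7.15e-06). It was also called in the fit to all 8 libraries. Upk2 rose by 1.61 ± 0.37, Sprr1a by 2.76 ± 0.37, Psca by 1.95 ± 0.45, and the keratins Krt19 and Krt7 by 1.51 ± 0.23 and 1.23 ± 0.23, making 6 of 13 tested urothelial genes (14 listed, median 1.23). Upk2 and Psca passed the filter only through their E16.5 levels, and 4 of the other 11 rose (median 0.95). Acta2, smooth muscle actin, read 65.8 TPM at E14.5 and 515 TPM at E16.5 with CPF, and 26.1 and 117 TPM with DMSO (log2 fold change 2.54 ± 0.24, adjusted p = 7.85e-06), and Tagln, an actin-binding protein of smooth muscle, read 36.3 TPM at E14.5 and 240.2 TPM at E16.5 with CPF, and 19.7 and 93.1 TPM with DMSO (log2 fold change 2.44 ± 0.23, adjusted p = 5.02e-06). The E14.5 CPF library held more of both than the E14.5 DMSO library, and the stages did not overlap in either gene. The myosin light chain Myl9 rose by 1.44 ± 0.25. Other contractile genes were high in 1 library only: Actg2, the visceral smooth muscle actin, read 10.6 TPM at E14.5 and 358 TPM at E16.5 with CPF, and 2.11 and 3.35 TPM with DMSO, and Cnn1 read 2.85 TPM at E14.5 and 78.0 TPM at E16.5 with CPF, and 0.795 and 5.20 TPM with DMSO, and neither passed the test. That library is the E16.5 CPF one with the high pancreas sum of 2299 TPM, and the part of the extra tissue in these levels was not tested. In the mural and renin cell list 3 of 14 tested genes rose, with medians of 1.55 in the CPF pair and 0.52 in the DMSO pair. Ren1 was listed at 0 in all 4 libraries.

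Of 15 tested endothelial genes 14 were higher at E16.5 in both agents, beside 31.5% of all tested genes, and 3 were called, beside 2.49%: Tie1 (1.57 ± 0.28), Esam (1.25 ± 0.31) and the apelin receptor Aplnr (1.24 ± 0.28). Tie1, an endothelial receptor, read 10.5 TPM at E14.5 and 47.9 TPM at E16.5 with CPF, and 17.9 and 38.2 TPM with DMSO. The list's median was 1.06, 1.28 with CPF and 0.58 with DMSO. Of 18 tested basement membrane genes 7 rose. Col4a2, a chain of type IV collagen, read 70.0 TPM at E14.5 and 224 TPM at E16.5 with CPF, and 97.5 and 196 TPM with DMSO (log2 fold change 1.33 ± 0.23, adjusted p = 0.00174), and Lama5, the laminin chain of the mature glomerular membrane, read 26.2 TPM at E14.5 and 70.4 TPM at E16.5 with CPF, and 22.6 and 54.9 TPM with DMSO (log2 fold change 1.32 ± 0.24, adjusted p = 0.00237). Col4a1, Hspg2, Nid2, Agrn and Lama1 also rose. The late type IV chains Col4a3 and Col4a4 were low and not called, Col4a3 at 0.911 TPM at E14.5 and 1.84 TPM at E16.5 with CPF, and 1.17 and 3.96 TPM with DMSO. Among 24 interstitial collagen and matrix genes 2 rose, beside 2.49% of all tested genes, Col15a1 (1.55 ± 0.25) and Bgn (0.91 ± 0.24). Col1a1, a fibrillar collagen chain, read 160.5 TPM at E14.5 and 547 TPM at E16.5 with CPF, and 259 and 248 TPM with DMSO and was not called, and the difference between its 2 steps did not pass the test either (adjusted p = 1).

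The cells that feed nephron formation left no called change. None of the 19 tested nephron progenitor genes was called, and their median step was -0.10. Six2 read 18.1 TPM at E14.5 and 19.1 TPM at E16.5 with CPF, and 50.5 and 41.6 TPM with DMSO, so its level followed the agent more than the stage. Gdnf, the growth factor that attracts the ureteric bud, read 19.6 TPM at E14.5 and 17.3 TPM at E16.5 with CPF, and 44.7 and 28.5 TPM with DMSO (log2 fold change -0.40 ± 0.25, adjusted p = 0.467). The early progenitor gene Cited1 was listed at 1.04 to 2.14 TPM in the 4 libraries. Cited1 has 4 RefSeq transcripts, so this level was not read as low expression. Foxd1, the stromal progenitor factor, was lower at E16.5 in both agents at 24.4 TPM at E14.5 and 14.8 TPM at E16.5 with CPF, and 52.1 and 29.3 TPM with DMSO, which did not pass the test (log2 fold change -0.75 ± 0.25, adjusted p = 0.113). In the stromal list of 16 tested genes 3 rose, Penk (1.58 ± 0.24), Bmp4 (1.19 ± 0.29) and Wnt4. Penk encodes the opioid precursor proenkephalin, and Bmp4, a signal of the tissue around the ureter, read 11.9 TPM at E14.5 and 37.5 TPM at E16.5 with CPF, and 9.19 and 16.8 TPM with DMSO. For 24 cell cycle genes none was called. In both agents 12 were lower and none was higher, beside 31.3% and 31.5% of all tested genes. Mki67 read 573 TPM at E14.5 and 408 TPM at E16.5 with CPF, and 375 and 308 TPM with DMSO and Top2a read 829.6 TPM at E14.5 and 536 TPM at E16.5 with CPF, and 702 and 538 TPM with DMSO. The 32 tested Hox genes had a median of 0.00 and no calls.

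**Figure D3:**
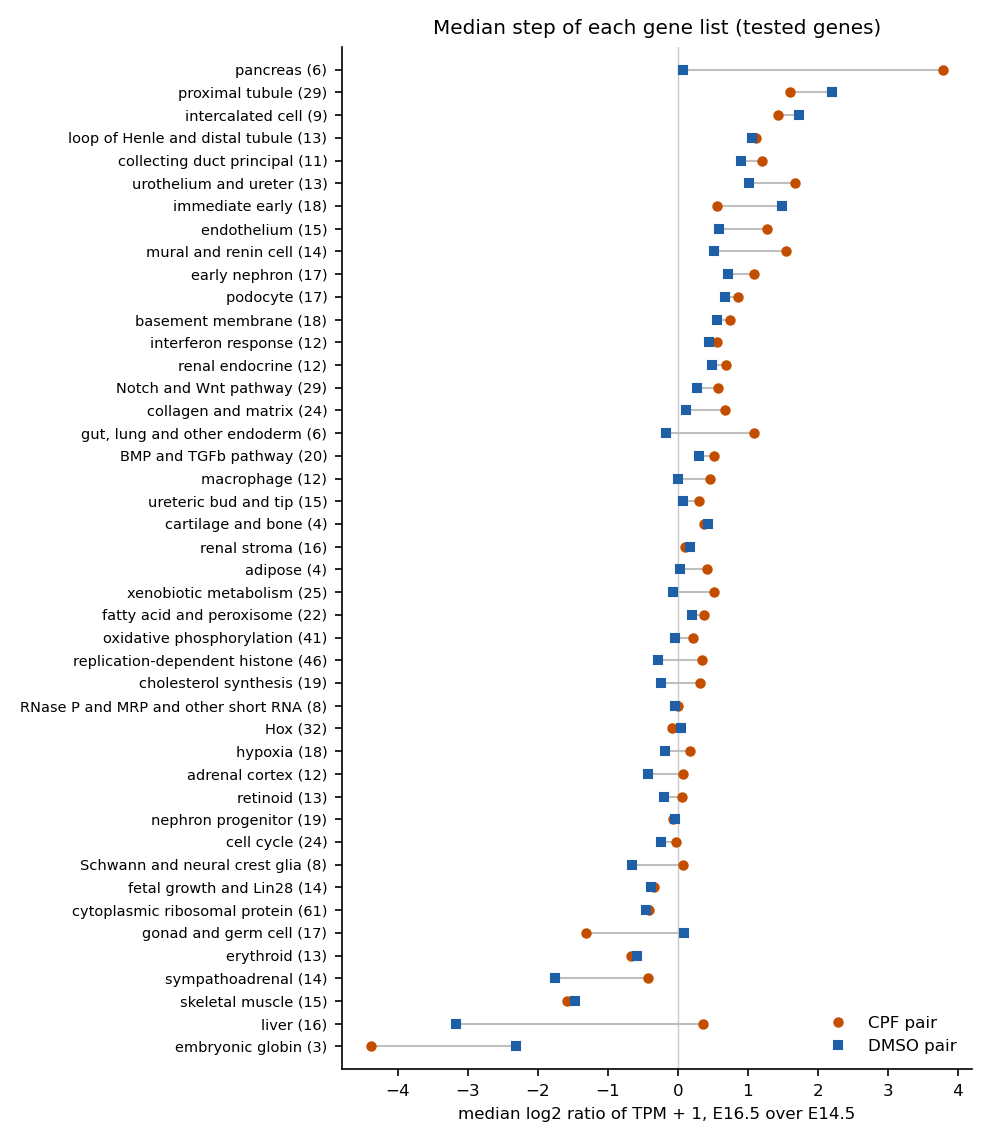
Median log2 ratio of TPM + 1 between E16.5 and E14.5 over the tested members of each of 44 gene lists (number in brackets), in the CPF pair (orange circles) and the DMSO pair (blue squares). The medians of the 2 agents have the same sign for the nephron segment, duct and skeletal muscle lists and lie far apart for liver, pancreas and embryonic globin lists.

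Hormonal and signalling genes of the kidney changed selectively. Kl, the coreceptor for the phosphate hormone FGF23, read 0.717 TPM at E14.5 and 7.14 TPM at E16.5 with CPF, and 0.654 and 11.1 TPM with DMSO (log2 fold change 2.56 ± 0.37, adjusted p = 0.000341). Kl was under 1 TPM in both E14.5 libraries and passed the filter only through its E16.5 levels. The angiotensin-cleaving peptidase Enpep read 42.6 TPM at E14.5 and 102 TPM at E16.5 with CPF, and 37.7 and 113 TPM with DMSO (log2 fold change 1.40 ± 0.22, adjusted p = 0.000936). The 2 main angiotensin II receptors moved in opposite directions: Agtr1a rose, at 4.90 TPM at E14.5 and 13.1 TPM at E16.5 with CPF, and 2.03 and 7.08 TPM with DMSO (log2 fold change 1.34 ± 0.34, adjusted p = 0.0308), and Agtr2, the receptor typical of fetal tissue, fell, at 343 TPM at E14.5 and 154 TPM at E16.5 with CPF, and 214 and 121 TPM with DMSO (log2 fold change -0.98 ± 0.23, adjusted p = 0.0175). The retinoic acid carrier Crabp2 fell (log2 fold change -0.92 ± 0.22), the 1 called gene of 13 tested in the retinoid list, while Aldh1a2, which makes retinoic acid in the stroma, read 273 TPM at E14.5 and 208 TPM at E16.5 with CPF, and 359 and 281 TPM with DMSO. Hdc, the histamine-forming enzyme, rose from 4.25 to 46.6 TPM with CPF and from 1.98 to 30.4 TPM with DMSO (log2 fold change 3.29 ± 0.30, adjusted p = 3.56e-06). Of 25 tested xenobiotic metabolism genes 2 rose, beside 2.49% of all tested genes. They were the sulfotransferase Sult1d1 (2.36 ± 0.35) and the flavin monooxygenase Fmo1 (1.37 ± 0.26).

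Immediate early genes, which respond within minutes to handling and growth signals, were called in 5 of 18 cases, with medians of 0.56 in the CPF pair and 1.49 in the DMSO pair. Junb read 27.7 TPM at E14.5 and 55.1 TPM at E16.5 with CPF, and 3.96 and 21.8 TPM with DMSO (log2 fold change 1.58 ± 0.31, adjusted p = 0.0113), and Zfp36 rose by 1.38 ± 0.28. The E14.5 DMSO library was the lowest of the 4 in Junb, and the summed level of the list there was 194 TPM against 490 to 711 TPM in the other 3. At E12.5 and E18.5 the list summed to 278 and 175 TPM with DMSO and to 798 and 498 TPM with CPF. Among the DMSO libraries the E16.5 one, at 544 TPM, was therefore the highest. The glycolytic and hypoxia list gave 2 higher calls of 18, beside 2.49% of all tested genes, with a median of -0.02. They were Ndrg1 (1.54 ± 0.26) and Egln3 (1.11 ± 0.26).

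Skeletal muscle genes fell in both agents. Of 19 listed, 15 were tested and 10 fell, against 1.12% of all tested genes, none rose, and all 15 had reached 1 TPM in at least 1 library of each stage. Myh3, embryonic myosin heavy chain (chr11:67078273-67102291), read 71.3 TPM at E14.5 and 18.0 TPM at E16.5 with CPF, and 45.0 and 11.7 TPM with DMSO (log2 fold change -1.89 ± 0.24, adjusted p = 0.000143). Tnnc1, the troponin C of slow muscle, read 60.9 TPM at E14.5 and 14.9 TPM at E16.5 with CPF, and 41.6 and 9.65 TPM with DMSO (log2 fold change -1.98 ± 0.25, adjusted p = 0.000121), and the muscle regulator Myog read 27.4 TPM at E14.5 and 6.91 TPM at E16.5 with CPF, and 15.8 and 3.92 TPM with DMSO (log2 fold change -1.81 ± 0.30, adjusted p = 0.0012). In each the E16.5 values lay below both E14.5 values. Mylpf, Tnnc2, Actc1, Neb, Ttn, Myl1 and Myh7 fell too, and Myl4 and Actn2, off the list, were among the 15 largest falls (-1.59 ± 0.25 and -1.44 ± 0.32). The list summed to 690.0 and 267 TPM with CPF and to 350.4 and 129 TPM with DMSO, and at E12.5 and E18.5 to 1022 and 48.7 TPM with CPF and to 358 and 32.1 TPM with DMSO. Muscle is no part of the kidney, and which tissue the transcripts came from was not tested.

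Embryonic globins fell beside them. Hbb-y, the beta-like globin of yolk sac red cells (chr7:103851754-103853207), read 15633 TPM at E14.5 and 521 TPM at E16.5 with CPF, and 3738 and 461 TPM with DMSO (log2 fold change -3.96 ± 0.46, adjusted p = 0.00425). Hba-x and Hbb-bh1 were lower at E16.5 in both agents as well, by -3.78 and -4.39 in the CPF pair and -1.51 and -2.31 in the DMSO pair as log2 ratios, and did not pass the test. Markers of red cell precursors were lower in both agents in 12 of 13 cases, beside 31.3% of all tested genes, with no call (median -0.70). The adult globins Hbb-bs and Hbb-bt were listed at or near 0 in all 4 libraries, at most 0.295 TPM, so the files do not show the change from embryonic to adult globin.

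Among fetal growth regulators 1 fell. Hmga2, a chromatin protein held up in fetal tissue by Lin28, read 167 TPM at E14.5 and 72.6 TPM at E16.5 with CPF, and 198 and 88.3 TPM with DMSO (log2 fold change -1.17 ± 0.21, adjusted p = 0.00291). Lin28b itself read 10.6 TPM at E14.5 and 4.47 TPM at E16.5 with CPF, and 7.58 and 2.68 TPM with DMSO, lower in both agents but not called (log2 fold change -1.15 ± 0.34, adjusted p = 0.0696). The list had 14 tested genes and a median of -0.33. Cytoplasmic ribosomal protein genes were lower in both agents in 44 of 61 cases, beside 31.3% of all tested genes, and higher in both in none, with a median of -0.42. A single one was called, near the 1.12% of lower calls among all genes, Rpl35 (log2 fold change -1.05 ± 0.27, adjusted p = 0.0317). Other genes among the 15 largest falls were Nefl, a neurofilament chain (-1.40 ± 0.27), Slc18a2, the vesicular monoamine transporter (-1.15 ± 0.25), the isomerase Pin4 (-1.58 ± 0.31) and the red cell antigen Kel (-1.36 ± 0.28).

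Many genes of a largely noncoding run on chromosome 12 were lower at E16.5, and 25 of its 55 tested genes fell. The imprinted Dlk1-Dio3 domain is transcribed from the maternal chromosome into the long RNAs Meg3, Rian and Mirg, which carry many C/D box small nucleolar RNAs (snoRNAs) and microRNAs (miRNAs) in their introns and exons. It was singled out after its values had been seen, so its counts describe these libraries and nothing was tested. Between the start of Meg3 and the end of Mirg (GRCm38.p6 chr12:109540996-109749458) 55 genes were tested, among them 1 that codes for protein, and the 25 falls stood against no rise, beside 1.12% lower calls among all genes and 2 lower and 7 higher calls among the 431 other tested genes of the chromosome. Both agents moved down in 41 of the 55, beside 31.3% of all tested genes, and up in none, and in 14 they did not move the same way, with a median of -1.03, -0.98 with CPF and -1.12 with DMSO. Restricted to the 39 that averaged 10 TPM or more over the 4 libraries, 21 fell. Genes in this domain share primary transcripts, so they are not independent of each other.

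Rian, which hosts the snoRNAs, read 426 TPM at E14.5 and 236 TPM at E16.5 with CPF, and 273 and 131 TPM with DMSO (log2 fold change -0.95 ± 0.23, adjusted p = 0.0245). Mirg read 46.3 TPM at E14.5 and 28.2 TPM at E16.5 with CPF, and 40.8 and 14.6 TPM with DMSO (log2 fold change -1.06 ± 0.26, adjusted p = 0.025), and Meg3 read 49.2 TPM at E14.5 and 32.2 TPM at E16.5 with CPF, and 41.1 and 19.5 TPM with DMSO with a step that just missed the threshold (log2 fold change -0.82 ± 0.24, adjusted p = 0.075). All 3 hosts were lower at E16.5 in both agents and lower still at E18.5, at 46.4 and 57.2 TPM for Rian with CPF and DMSO. All 7 snoRNA genes of the domain moved down in both agents and 5 were called, DQ267101 with the largest step, at 102 TPM at E14.5 and 30.8 TPM at E16.5 with CPF, and 34.6 and 10.4 TPM with DMSO (log2 fold change -1.67 ± 0.24, adjusted p = 0.00034). Of 44 miRNA genes 18 fell and none rose (median -1.11), against 40 lower and 19 higher calls among the 480 miRNA genes elsewhere (median -0.28). In the fit to all 8 libraries none of the 55 was called, with 25 lower at an unadjusted p under 0.05, and 12 were called after scaling to coding transcripts.

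The mature miRNAs of the 4 most abundant fallen miRNA genes are shown because they give the products of the domain. The files measure the hairpin genes in libraries of total RNA, and the mature strands were not measured apart. Sequences are from RefSeq (GRCm38.p6, plus strand of chromosome 12), 5′ to 3′, with the seed, bases 2 to 8, in capitals.
miR-668-5p, chr12:109734733-109734756: gUAAGUGUgccucgggugagcaug
miR-668-3p, chr12:109734774-109734797: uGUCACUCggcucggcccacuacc
miR-377-5p, chr12:109740515-109740536: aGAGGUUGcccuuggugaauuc
miR-377-3p, chr12:109740553-109740574: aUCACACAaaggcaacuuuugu
miR-453, chr12:109735669-109735692: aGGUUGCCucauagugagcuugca
miR-382-5p, chr12:109733781-109733802: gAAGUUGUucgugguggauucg
miR-382-3p, chr12:109733819-109733840: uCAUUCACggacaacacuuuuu
Across the 14 fallen miRNA genes that averaged 10 TPM or more there were 26 mature strands with 26 different seeds, so no seed was shared. Mir668 read 104 TPM at E14.5 and 48.6 TPM at E16.5 with CPF, and 110.5 and 30.0 TPM with DMSO (log2 fold change -1.46 ± 0.24, adjusted p = 0.00121), and Mir377 read 81.3 TPM at E14.5 and 24.2 TPM at E16.5 with CPF, and 77.8 and 26.1 TPM with DMSO (log2 fold change -1.62 ± 0.23, adjusted p = 0.000322). Mir453 and Mir382 fell, with log2 fold changes of -0.94 ± 0.23 and -0.89 ± 0.24. A read in 1 kb of transcript was worth an estimated 0.0675 to 0.0988 TPM in these libraries, and since a hairpin is far shorter than that, the value of such a gene rests on few reads.

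**Figure D4:**
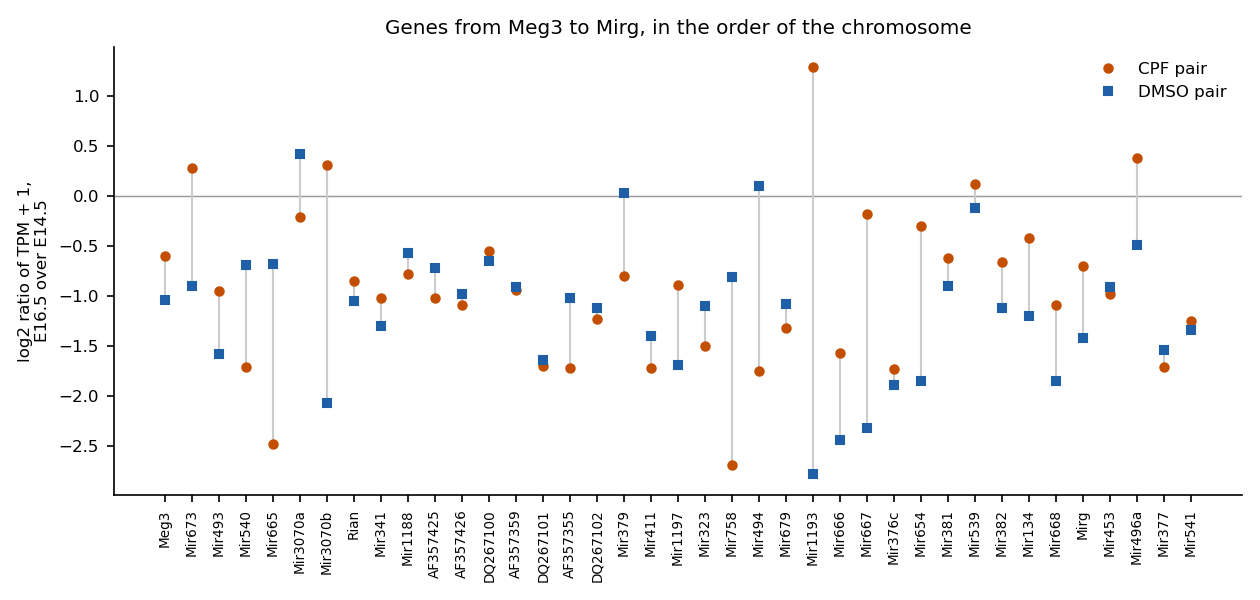
Log2 ratio of TPM + 1 between E16.5 and E14.5 for the 39 genes from Meg3 to Mirg that averaged 10 TPM or more, in chromosome order, in the CPF pair (orange circles) and the DMSO pair (blue squares). In 31 of the 39 both agents lie below 0, and in none do both lie above it.

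Liver, adrenal cortex and gonad markers mostly had unlike steps in the 2 agents. Skeletal muscle, embryonic globin and erythroid markers, described above, mostly moved the same way in both. Alb, serum albumin, read 1668 TPM at E14.5 and 2036 TPM at E16.5 with CPF, and 278 and 5.77 TPM with DMSO, which gives log2 steps of 0.29 and -5.36. Of 16 tested liver markers 15 had opposite signs in the 2 agents and none was called. Ctrb1, a pancreatic protease precursor, read 0.214 TPM at E14.5 and 913 TPM at E16.5 with CPF, and 0.335 and 2.06 TPM with DMSO, and Pnliprp1, a pancreatic lipase relative, read 7.66 TPM at E14.5 and 917 TPM at E16.5 with CPF, and 5.51 and 1.26 TPM with DMSO, so both were high in the E16.5 CPF library alone. Sympathoadrenal markers were lower at E16.5 in both agents in 10 of 14 tested genes, beside 31.3% of all tested genes, without a call. Dbh, the noradrenaline-forming enzyme, read 52.1 TPM at E14.5 and 20.4 TPM at E16.5 with CPF, and 31.1 and 0 TPM with DMSO. Germ cell markers were high in the E14.5 CPF library: Dppa3 read 115 TPM at E14.5 and 1.39 TPM at E16.5 with CPF, and 0 and 0 TPM with DMSO.

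**Figure D5:**
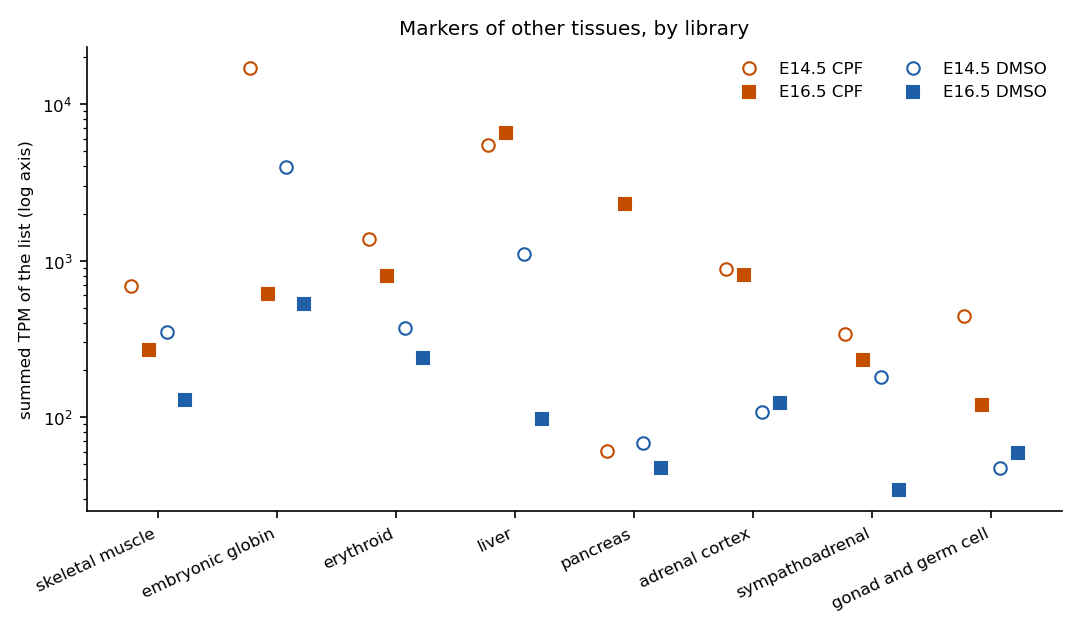
Summed TPM of 8 marker lists of other tissues in the 4 libraries, on a log axis, with open circles for E14.5, filled squares for E16.5, orange for CPF and blue for DMSO. Skeletal muscle and embryonic globin are lower at E16.5 in both agents, liver only in the DMSO pair, and pancreas is high in the E16.5 CPF library alone.

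The step was next set against its neighbours, the mean of the E12.5 to E14.5 and E16.5 to E18.5 steps. No gene of 13677 passed this test in limma (0%), with 327 at an unadjusted p under 0.05, so nothing above is called particular to this interval. Slc34a1, for example, read 0.0329 and 0 TPM at E12.5 and 551 and 83.9 TPM at E18.5 with CPF and DMSO. The CPF step minus the DMSO step passed the limma test in 54 genes (0.395%), with 2 residual degrees of freedom. This difference was above 0 in 28 and below 0 in 26, which does not say which pair changed more. Of the 54, 38 are short RNA genes, 33 of them with a library at 0 TPM, and these include all 26 below 0. The other 16 were above 0, 10 of them liver or pancreas markers. Ctrb1 rose more with CPF (log2 steps of 9.56 with CPF and 1.20 with DMSO). Alb moved little with CPF and fell with DMSO (0.29 and -5.36). When libraries were scaled to coding transcripts, no gene passed for this difference (0), with 269 at an unadjusted p under 0.05.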

How the data were processed

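RNA was sequenced from 8 embryonic kidney libraries, 4 of them used here, made from 2 μg of RNA each, per the labels' protocols. The submitters' processing notes name Trimmomatic, STAR and mm10, without versions. The authors deposited TPM for 32862 RefSeq transcripts in each library. Their read counting is not given in the sources used.

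Transcripts were summed per gene symbol (24151 genes), after 52 transcripts with symbols listed as dates or numbers had theirs restored from the RefSeq table (GRCm38.p6). TPM keeps no depth. From the steps between low values, 1 read in 1 kb was worth 0.0609 to 0.105 TPM over the 8 libraries, with 58.5% to 67.2% of low values within 0.02 reads of a whole multiple against 4% by chance.

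Genes with at least 1 TPM in at least 2 of the 4 libraries were tested on log2(TPM + 1) with limma 3.58.1 (R 4.3.3), mean-variance trend and robust moderation, with stage and agent as terms and Benjamini-Hochberg adjustment over all 13023. Agent was the pairing term: each library has 1 partner of the same agent at the other stage, and no label ties single animals. The fits were tested on simulated data, where the 4-library fit made more false calls than its threshold implies. Named genes are the 15 called in each direction, with 1 transcript, a gene name and a mean of at least 10 TPM, whose smaller step was largest; up to 4 called members per list by fold change, filled to 2 by mean TPM; 26 genes set by name; and up to 5 each way with 2-fold opposite steps. Others were named after their values were seen. Members and all 44 lists were chosen with earlier results of these data known. Alternatives were the fit to 8 libraries, no agent term, scaling, filters, pseudocount, moderation, single-transcript genes and each library left out. A few listed genes are counted but not reported by name here.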

Additional observations from a re-analysis of the deposited data

Results flagged for a closer look

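In 11 named genes the CPF step and the DMSO step from E14.5 to E16.5 differed, either by the test of that difference in limma or because the single CPF pair and the single DMSO pair moved at least 2-fold in opposite directions. Values are the CPF log2 step minus the DMSO log2 step.

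Pancreatic enzyme genes stood highest: Ctrb1 at 8.36 (adjusted p = 6.32e-05), Pnliprp1 at 8.26 (adjusted p = 0.183, not past the threshold) and Cpa1, a carboxypeptidase, at 7.29 (adjusted p = 0.0026). The carboxypeptidase Cpa1 read 3.89 TPM at E14.5 and 548 TPM at E16.5 with CPF, and 3.51 and 2.23 TPM with DMSO. Of 22 pancreas markers in the files 2 were below 0.1 TPM in the E16.5 CPF library and 10 in each of the other 3.

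The liver proteins Alb and Afp differed by 5.65 (adjusted p = 1.66e-08) and 3.00 (adjusted p = 0.0271), with Afp, the fetal albumin relative, at 1959 TPM at E14.5 and 1956 TPM at E16.5 with CPF, and 383 and 46.8 TPM with DMSO. Gc, the vitamin D carrier made by liver, differed by 2.18 without passing the test (adjusted p = 1). Alb and Afp were lower at E16.5 in the DMSO pair.

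Chgb, a granule protein of adrenal medulla and sympathetic cells, differed by 4.01 (adjusted p = 0.0439), at 57.9 TPM at E14.5 and 21.5 TPM at E16.5 with CPF, and 52.9 and 0.271 TPM with DMSO. The steroid enzymes Cyp11b1 and Cyp11a1 of the adrenal cortex differed by 2.51 and 2.40 without passing the test (adjusted p = 1 for each). Defb19, a beta-defensin, differed by -2.50 in the other direction and did not pass it either (adjusted p = 1), at 62.3 TPM at E14.5 and 23.3 TPM at E16.5 with CPF, and 0.251 and 1.72 TPM with DMSO.

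Rps2, a ribosomal protein gene, differed by 6.14 (adjusted p = 2.96e-11) and read 133 TPM at E14.5 and 321 TPM at E16.5 with CPF, and 755 and 24.8 TPM with DMSO. It was low in the E16.5 DMSO library, while of 61 tested ribosomal protein genes 44 were lower in both agents. The cause of these differences was not tested, and with the libraries scaled to coding transcripts, with quantile normalization or without the filter none of the differences between agents passed the limma test.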

How the results depend on the processing

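The counts of 324 higher and 146 lower genes depend on the fit. The fit to 8 libraries, the agent term, the filters, single-transcript genes and moderation leave each gene's fold change as it was. A pseudocount cannot reverse a gene whose 2 agents have the same sign. Direction could therefore change only under coding scaling, quantile normalization and the fits to 7 libraries. There all 470 kept it, except 1 gene in the fit without the E14.5 DMSO library. Higher and lower calls were 3 and 2 in the fit to all 8 libraries, 0 and 0 with no replicate block (no agent term, limma, 1453 genes at an unadjusted p under 0.05), 168 and 38 with coding scaling, 118 and 31 with no filter on low values, 209 and 95 with a pseudocount of 0.1, and 180 and 77 without robust moderation. At a minimum of 5 TPM the lower calls were 296. Fits to 7 libraries gave 54 and 39 without E14.5 CPF, 24 and 22 without E16.5 CPF, 104 and 70 without E14.5 DMSO, and 18 and 7 without E16.5 DMSO. The pairing by agent is the design's own and rests on 1 library per agent and stage.

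Genes 2-fold in both agents were 67 lower at a minimum of 5 TPM and 413 higher and 229 lower with a pseudocount of 0.1. Within 1 agent alone, chosen after seeing the data, they were 1033 higher and 665 lower with CPF and 566 higher and 424 lower with DMSO. Against neighbouring steps 2 genes were called with a pseudocount of 0.1. The difference between agents gave 0 calls with coding scaling, 0 with quantile normalization and 0 without the filter (269, 289 and 805 at an unadjusted p under 0.05), and 17 at 5 TPM, against 54. The cause of these changes was not tested. No called named gene reversed. With 1 library per stage and agent and an unknown number of embryos, no value here has a spread between animals, and rare or short transcripts rest on few reads.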

Other observations

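Small nucleolar RNA genes, whose products guide the chemical modification of ribosomal and spliceosomal RNA, were lower at E16.5 beyond the chromosome 12 domain too. Of 102 tested 23 were called lower and none higher, 5 of them in that domain, with a median step of -0.66, -0.88 with CPF and -0.46 with DMSO. This set was formed after its values had been seen. Most mouse snoRNAs are cut from introns of host genes, and 4 host genes, picked after their values were seen, were called lower. They come from no fixed list of hosts, so they give no share to compare with the 2.99% of 602 tested lncRNA genes called lower. Gas5 read 428 TPM at E14.5 and 135 TPM at E16.5 with CPF, and 373 and 229 TPM with DMSO (log2 fold change -1.18 ± 0.26, adjusted p = 0.0162), and Snhg3, Snhg5 and Snhg12 had log2 fold changes of -0.86 ± 0.22, -1.02 ± 0.25 and -0.90 ± 0.22. Mir17hg, the host of the miR-17 to miR-92 cluster, read 52.2 TPM at E14.5 and 19.2 TPM at E16.5 with CPF, and 99.2 and 49.4 TPM with DMSO (log2 fold change -1.19 ± 0.23, adjusted p = 0.00528). In contrast, of 11123 tested protein-coding genes 295 were called higher and 42 lower.

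The summed level of the proximal tubule list differed between agents within and after the interval, without a test. It was 380 and 1072 TPM at E14.5 and E16.5 and 9328 TPM at E18.5 with CPF, and 167, 773 and 1730 TPM with DMSO. The sum includes the liver marker Ttr, at 221 TPM with CPF and 0.498 TPM with DMSO at E16.5. At E18.5 Rpph1 and Rmrp took 21.3% of the TPM with CPF and 41.8% with DMSO. The part of either in these sums was not tested. Sp7, Col9a2 and the other tested cartilage and bone markers gave no calls, nor did macrophage markers (12 tested, median 0.30), among which the lysozyme gene Lyz2 read 39.9 TPM at E14.5 and 57.8 TPM at E16.5 with CPF, and 20.5 and 26.5 TPM with DMSO.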
